A study of Homo sapiens with 6 samples.

Results

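Potassium channel subunit genes were examined in Kelly cells, a MYCN-amplified line established from human neuroblastoma and labelled as wild type, 72 hours after transfection of a control siRNA (siControl, 3 libraries) or of an siRNA against METTL3 (siMETTL3, 3 libraries). METTL3 is the catalytic subunit of the enzyme complex that writes N6-methyladenosine (m6A) into mRNA. RNA-seq counts of poly(A) RNA were compared between the groups, and the question was how depletion of METTL3 changes the levels of these transcripts. The members were all genes of the count tables whose symbol is KCN followed by further letters and a number, which gave 95 of 19923 genes. Nothing in the labels says whether replicates came from separate cultures, so p-values measure only the spread between these libraries.

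Potassium channels let potassium ions leave or enter the cell down their electrochemical gradient and so set the resting potential, shorten action potentials and time repetitive firing. Voltage-gated channels are tetramers that open on depolarisation. Inward rectifiers pass current best near the resting potential, and two-pore channels carry the leak current. Calcium-activated and sodium-activated channels couple potassium flow to those ions, and accessory subunits change gating or surface delivery without forming a pore. Neuroblastoma arises from the sympathetic lineage, whose neurons use channels of all these kinds to control excitability.

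Sorted by symbol alone, the members fell into 40 voltage-gated pore subunits, 16 inward rectifiers, 15 two-pore subunits, 8 calcium-activated or sodium-activated subunits and 16 accessory subunits. Of the 95 members, 73 had enough counts to be tested. With edgeR's quasi-likelihood test at a false discovery rate (FDR, Benjamini-Hochberg over all 15311 genes tested) under 0.05, 31 members were higher and 9 were lower in siMETTL3. Over all tested genes, 37.8% were called, 18.6% as higher and 19.2% as lower, whereas 42.5% of the tested members were called higher and 12.3% lower. The median log2 fold change (siMETTL3 over siControl) was 0.35 over the tested members and -0.0021 over all tested genes. Changes of at least 2-fold were called in 8 members upward and in 2 downward, against 2.74% and 0.607% of all tested genes. Those downward were KCND2 and KCNU1, and without siControl replicate 3 or under limma-voom 1 remained, KCNU1. The upward count was 9 under total count scaling. It was 6 with at least 10 counts in every library, on genes without overlaps, and without siMETTL3 replicate 2. The 8 include KCNA6 and KCNG2, both at low counts. In 48 of the 73 the 3 libraries of one group lay wholly on one side of the other group, 35 upward and 13 downward, against 49.9%, 24.8% and 25.1% of all tested genes. The members KCNA6, KCNN4 and KCNQ3 reached the filter's count level in 3 libraries of 1 group and in 1 library of the other. Without them 30 of 70 were higher and 9 were lower. KCNG2, KCNK7, KCNE1, KCNH5 and KCNT1 reached it in 3 libraries of 1 group and 2 of the other, and were kept. Of these KCNG2 alone was called, as higher, with 2 siControl libraries at that level.

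**Figure D1:**
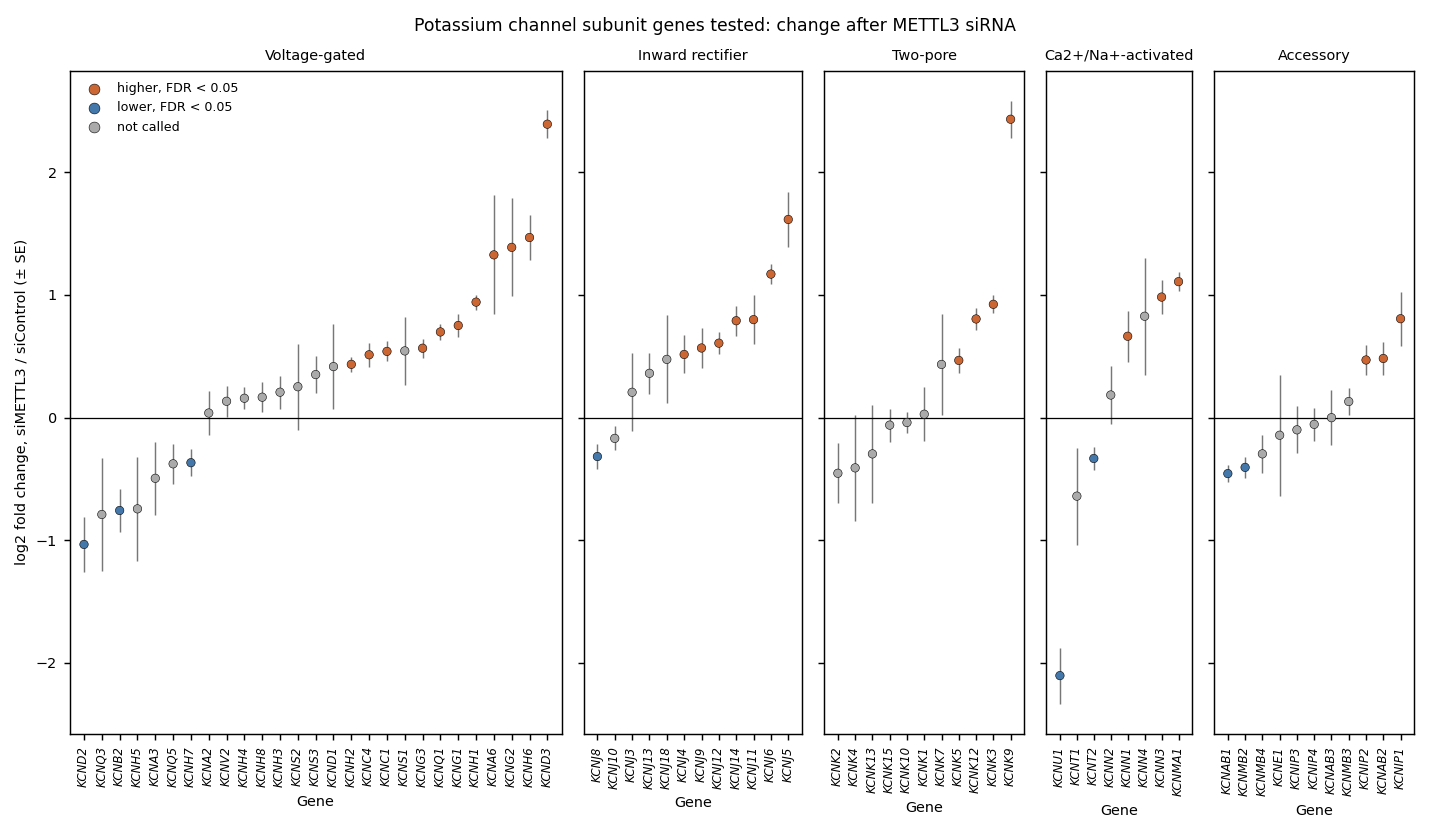
Log2 fold change (siMETTL3 over siControl, y axis) with its standard error for 69 of the 73 tested members, in panels by class (x axis, gene). Orange points were higher and blue points lower at an FDR under 0.05, and KCND3 (2.39), KCNK9 (2.43) and KCNU1 (-2.10) lie farthest from 0.

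The targeted gene was lower in every library labelled siMETTL3. Values with ± are means and SD of 3 libraries. METTL3 (chromosome 14, 21498133 to 21511342, minus strand) was measured at 53.5, 52.8 and 56.2 CPM in siControl and at 32.99, 31.8 and 34.3 CPM in siMETTL3, where CPM are counts scaled to a common library size (log2 fold change -0.71, SE 0.070, edgeR FDR 4.68e-06). Library totals ranged from 15430000 counts (siControl replicate 3) to 21565013. The siControl replicate 3 library stood apart, with a chi-square per degree of freedom over genes of 8.08 and 14.5 against the other controls, which gave 5.16 between themselves. It was the highest control in 7 of the 9 lower members and also in 22 of the 33 members not called. Among the 31 higher members it was the lowest control in 19. Without it, 33 members were called higher and 10 lower. Among marker genes, those of noradrenergic neuroblastoma summed to between 4964 and 5484 CPM in siControl and to between 7417 and 7843 CPM in siMETTL3. The listed markers of glia summed to between 5.38 and 5.81 CPM in siControl and between 6.52 and 8.65 CPM in siMETTL3, and those of mesenchymal cells to between 5.11 and 7.83 CPM and between 9.28 and 11.9 CPM, so that both lists were higher in every siMETTL3 library. Of 3 glial markers tested 0 were called, and of the 4 mesenchymal markers 2 were tested and 2 called higher. Those of epithelial cells (6.31 to 7.05 against 5.99 to 8.36 CPM) overlapped. The 3 leukocyte markers were all too low to test. Their sums (0.398 to 0.603 CPM in siControl, 0.184 to 0.292 CPM in siMETTL3) are too near the floor to give a direction. Whether the shifts in marker sums bear on the channel genes was not tested. In bulk RNA, fewer cells that express a gene and less RNA of it per cell cannot be told apart.

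The promoters of KCND3 and KCND2 are shown because these related genes showed the largest rise and the largest fall among the called voltage-gated subunits. Each run holds the 250 bases before and the 50 bases after the gene start in RefSeq (GRCh38.p14), 5′ to 3′ on the gene's strand, with KCND3 at chr1:111989619-111989918 (minus strand) and KCND2 at chr7:120272925-120273224 (plus strand). Capitals mark the E-box CACGTG, a core bound by MYC family proteins, and the GC box GGGCGG, each searched on both strands.
KCND3 promoter: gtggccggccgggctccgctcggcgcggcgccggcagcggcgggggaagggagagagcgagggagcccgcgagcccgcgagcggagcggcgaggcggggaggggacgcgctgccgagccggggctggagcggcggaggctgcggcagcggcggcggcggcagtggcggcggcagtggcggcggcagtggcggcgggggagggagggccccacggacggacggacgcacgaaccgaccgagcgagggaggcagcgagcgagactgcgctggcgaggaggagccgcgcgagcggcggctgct
KCND2 promoter: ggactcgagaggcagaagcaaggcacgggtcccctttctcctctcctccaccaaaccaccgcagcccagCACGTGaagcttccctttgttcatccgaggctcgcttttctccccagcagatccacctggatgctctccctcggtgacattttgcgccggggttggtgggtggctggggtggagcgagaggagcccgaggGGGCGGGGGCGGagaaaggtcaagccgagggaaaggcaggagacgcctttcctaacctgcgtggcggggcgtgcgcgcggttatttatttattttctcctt
The KCND3 run holds 53 CpG dinucleotides at 81.7% GC and neither motif, and the KCND2 run holds 21 at 61.7% GC, 1 E-box and 2 GC boxes that abut each other. Of 71 members with a promoter in the table, 3 hold CACGTG (4.23%), against 7.43% of all 27305 promoters and 9.65% of those of tested genes. GGGCGG is held by 43 (60.6%), above the share of all promoters (44.6%) and below that of tested genes (67.2%). CACGTG was found in 0 of 21 higher members, 1 of 5 lower members and 2 of 26 members not called, counts too small to set apart from the share in tested genes. Neither of these matches is evidence of binding.

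METTL3 methylates adenosine within a short consensus whose commonest core is GGACT in DNA letters. Coding windows around the last such core whose window lies within 1 exon are shown for KCND3, KCND2, KCNH1 and KCNMA1, the pair above and a further pair of strongly changed pore subunits. They were read from the canonical GENCODE 44 transcripts (GRCh38), 5′ to 3′ on the transcript strand, with the core in capitals.
KCND3, chr1:111776234-111776256, minus strand, exon 8 of 8: gcagacgacGGACTgagaccaaa
KCND2, chr7:120274839-120274861, plus strand, exon 1 of 6: ttctgagagGGACTttttctacc
KCNH1, chr1:210683694-210683716, minus strand, exon 11 of 11: gaagagtgaGGACTggaacaagg
KCNMA1, chr10:76909971-76909993, minus strand, exon 25 of 28: cagtgtcctGGACTcactcatga
The core occurred at a median of 1.15 per kb of transcript in the 31 higher members, 0.800 in the 9 lower members and 0.994 in the 33 members not called, against 0.928 over 14554 tested genes (interquartile range 0.563 to 1.39). A match is a description and says nothing of methylation in these cells, which the counts do not measure.

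Among the voltage-gated subunits, 31 of 40 were tested. Of these, 14 were higher (45.2%) and 4 were lower (12.9%), against 18.6% and 19.2% of all tested genes. The Kv4 subunits, which carry the fast A-type current that delays firing, changed in opposite directions. KCND3 (chromosome 1, 111770662 to 111989155, minus strand) was measured at 17.6, 20.3 and 13.4 CPM in siControl and at 86.1, 97.7 and 87.9 CPM in siMETTL3. Every siMETTL3 library was over 4 times as high as every siControl library, a 5.25-fold rise (log2 fold change 2.39, SE 0.11, edgeR FDR 4.25e-08). KCND2 (chromosome 7, 120273175 to 120750337, plus strand) was measured at 31.2, 26.3 and 49.6 CPM in siControl and at 17.01, 16.7 and 18.1 CPM in siMETTL3. The siControl libraries were spread, with replicate 3 highest, yet all lay above the siMETTL3 libraries, and the level was 2.05-fold lower (log2 fold change -1.03, SE 0.23, edgeR FDR 0.0104). Without siControl replicate 3 the log2 fold change of KCND2 was -0.74, still past the threshold but under 2-fold (FDR 5.46e-07 to 0.0386 over its alternatives). KCND1, the remaining Kv4 subunit, lay between 1.001 and 2.39 CPM in every library and was not called (log2 fold change 0.42, edgeR FDR 0.373), but passed without siControl replicate 3 (log2 fold change 0.87, FDR 0.0401 to 0.734 over its alternatives).

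Of the 5 EAG and ERG subunits, close relatives that carry delayed and repolarising currents, 3 rose and 1 fell. KCNH1, the EAG1 subunit (chromosome 1, 210676823 to 211134165, minus strand), was measured at 110.4, 111 and 104 CPM in siControl and at 219, 196 and 209.7 CPM in siMETTL3 and so rose 1.92-fold with little spread (log2 fold change 0.94, SE 0.060, edgeR FDR 1.01e-07). Its span shares 60.4% of its length with the gene models AC092017.3 and AL590132.1, whose own counts rose by 1.17 and 1.11 on the log2 scale, and reads there were counted for each gene. KCNH6, an ERG subunit, was measured at 4.82, 4.004 and 2.52 CPM in siControl and at 10.9, 11.3 and 9.88 CPM in siMETTL3, a 2.77-fold rise from a low level (log2 fold change 1.47, SE 0.19, edgeR FDR 4.24e-05). KCNH2, the ERG1 subunit that also repolarises the heart, rose to 134 ± 7.76 CPM in siMETTL3 against 99.01 ± 5.17 CPM in siControl (log2 fold change 0.43, SE 0.063, edgeR FDR 1.40e-04). The third ERG gene moved the other way: KCNH7 was measured at 87.2, 90.1 and 121 CPM in siControl and at 77.7, 73.03 and 79.4 CPM in siMETTL3 (log2 fold change -0.37, SE 0.11, edgeR FDR 0.0227). The siControl replicate 3 library was the highest for KCNH7 by a wide margin, and without it the log2 fold change was -0.21. The KCNH7 call was lost when siMETTL3 replicate 1 or 2 was left out (log2 fold change -0.38 and -0.34, FDR 0.00103 to 0.0810 over its alternatives). KCNH5, the EAG2 subunit (log2 fold change -0.74), and the ELK subunits KCNH3, KCNH4 and KCNH8 (0.21, 0.16 and 0.17) were not called. KCNH4 was the best expressed of these 4 per kb of span, at 47.5 ± 5.24 CPM in siControl and 53.1 ± 4.57 CPM in siMETTL3 (edgeR FDR 0.183).

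Of the Kv7 subunits, KCNQ1, the subunit of the slow cardiac and epithelial current, rose. It was measured at 114, 122 and 138 CPM in siControl and at 198, 206 and 202 CPM in siMETTL3, so that the groups were apart by more than their spread (log2 fold change 0.70, SE 0.068, edgeR FDR 4.42e-06). Its whole span was counted with no strand option and a protein-coding annotation. Reads of any non-coding RNA within the span would count as KCNQ1, and their share was not tested. KCNQ5 and KCNQ3, which contribute to the neuronal M-current that damps repetitive firing, were not called. KCNQ5 was measured at 257, 258 and 385 CPM in siControl and at 240.1, 220.4 and 232 CPM in siMETTL3 (log2 fold change -0.38, edgeR FDR 0.118), and KCNQ3 stayed below 1 CPM in every library (log2 fold change -0.79, edgeR FDR 0.198). For KCNQ5 the groups did not overlap, and siControl replicate 3 stood far above the other controls. The gene passed the threshold without siControl replicate 2 (log2 fold change -0.47), without siControl replicate 3 (-0.16), under limma-voom (-0.35) and with an offset for span length (-0.38), with FDR 0.00890 to 0.210 over its alternatives.

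KCNB2, a delayed rectifier of the Kv2 family (chromosome 8, 72537225 to 72938349, plus strand), fell. It was measured at 155, 150.1 and 229.9 CPM in siControl and at 115, 102 and 98.5 CPM in siMETTL3, with siControl replicate 3 again the highest (log2 fold change -0.76, SE 0.18, edgeR FDR 0.0174). Without that library the log2 fold change was -0.54 and still past the threshold (FDR 1.69e-08 to 0.0480 over its alternatives).

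The modifier subunits of the KCNG group, silent on their own and known to assemble with Kv2 subunits, rose in all 3 tested genes. KCNG1 was measured at 21.6, 19.02 and 19.2 CPM in siControl and at 31.1, 36.1 and 33.8 CPM in siMETTL3 (log2 fold change 0.75, SE 0.091, edgeR FDR 3.03e-05). KCNG3 rose to 39.5 ± 1.97 CPM in siMETTL3 against 26.7 ± 1.03 CPM in siControl (log2 fold change 0.57, edgeR FDR 8.56e-05). KCNG2 rose from a level below 1 CPM to at most 1.51 CPM (log2 fold change 1.39, edgeR FDR 0.0141), and lost its call on leaving out siControl replicate 2 or either of siMETTL3 replicates 2 and 3 (log2 fold change 1.12, 1.31 and 1.27, FDR 0.0107 to 0.0732 over its alternatives). KCNS3, a further modifier subunit, lay higher in all siMETTL3 libraries without passing (log2 fold change 0.35, edgeR FDR 0.0767), as did KCNS1 (log2 fold change 0.54, edgeR FDR 0.143). KCNS2 and KCNV2, which lie wholly or mostly within the spans of STK3 and PUM3, were not called (0.25 and 0.13 on the log2 scale).

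Kv3 subunits, which allow fast repolarisation in rapidly firing neurons, included KCNC1 and KCNC4, which both rose. KCNC1 was measured at 35.9, 30.98 and 29.9 CPM in siControl and at 45.2, 47.6 and 48.3 CPM in siMETTL3 (log2 fold change 0.54, SE 0.082, edgeR FDR 1.90e-04). Of its span, 56.3% overlaps SERGEF, which was also higher (log2 fold change 0.42). KCNC4 rose to 42.9 ± 2.99 CPM in siMETTL3 against 29.96 ± 4.02 CPM in siControl (log2 fold change 0.51, edgeR FDR 9.68e-04) and overlaps no other gene of the tables. Among the Kv1 subunits, which set the threshold of axons, no tested gene passed 5.31 CPM in any library. KCNA6 had between 4 and 25 counts per library, lay higher in siMETTL3 (log2 fold change 1.33, SE 0.49, edgeR FDR 0.0448) and sits wholly within GALNT8, itself higher (log2 fold change 0.61). Its call was lost without siControl replicate 1 or 2 and without siMETTL3 replicate 2 or 3 (log2 fold change 0.97, 1.42, 1.11 and 1.27), with no count filter (1.31), in DESeq2 (1.32) and with an offset for GC content (1.26), with FDR 0.0234 to 0.180 over its alternatives. KCNA2 and KCNA3 were not called (log2 fold change 0.037, edgeR FDR 0.896 and log2 fold change -0.50, edgeR FDR 0.210), although KCNA3 passed as lower without siControl replicate 1 (log2 fold change -0.75, FDR 0.0390 to 0.451 over its alternatives). KCNA1, KCNA4, KCNA5, KCNA7, KCNA10, KCNC2, KCNF1, KCNG4 and KCNV1 were too low to test.

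**Figure D2:**
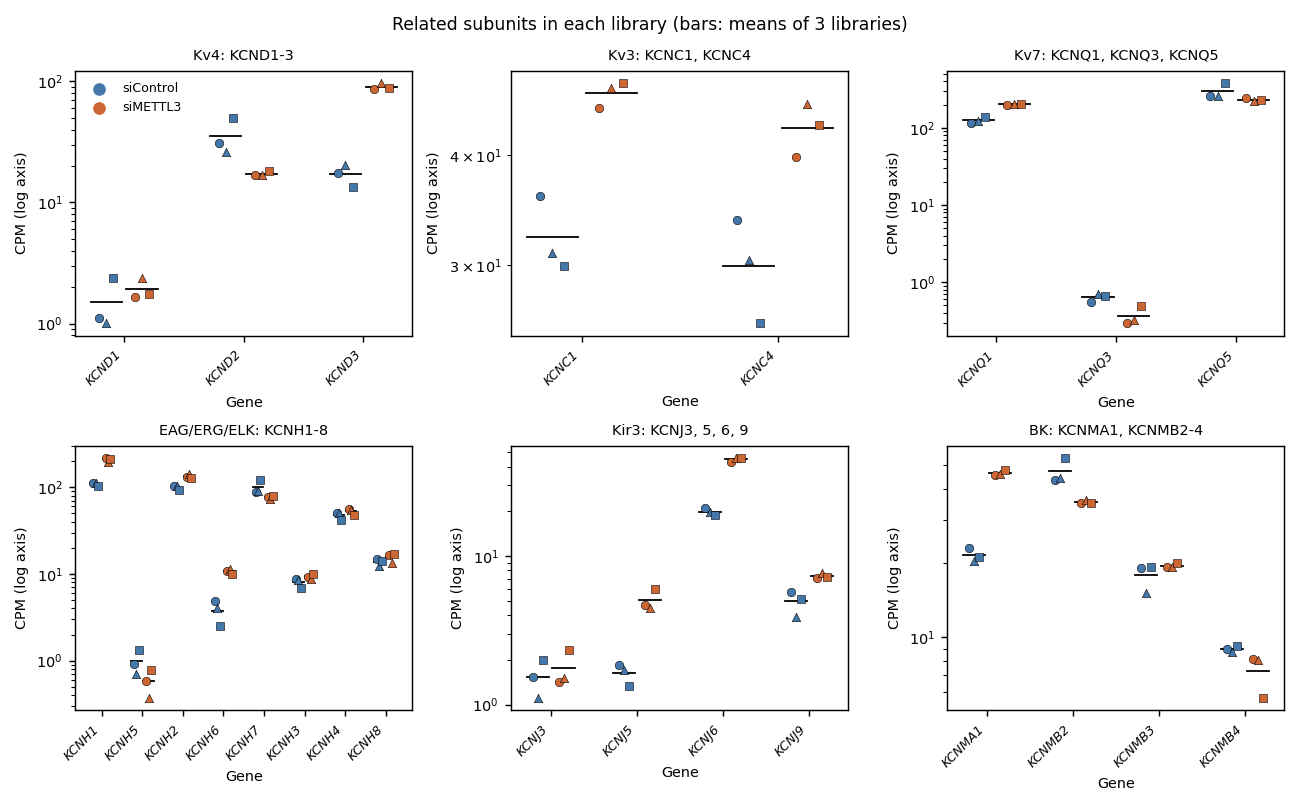
CPM in each library (y axes, log scale with its own range in each panel) for related subunits (x axes), with siControl in blue, siMETTL3 in orange, circles, triangles and squares for replicates 1, 2 and 3, and bars for means of 3 libraries. In the Kv4 panel KCND2 falls from 35.7 to 17.3 CPM while KCND3 rises from 17.1 to 90.6 CPM.

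More inward rectifiers rose than fell. Of 16 members 12 were tested, 7 were higher (58.3%) and 1 was lower (8.33%), against 18.6% and 19.2% of all tested genes. The Kir3 subunits, which G-protein-coupled receptors open through beta-gamma subunits to slow firing, were higher in 3 of 4 genes. KCNJ6 (chromosome 21, 37607373 to 38121345, minus strand) was measured at 21.05, 19.7 and 18.8 CPM in siControl and at 42.9, 45.98 and 45.4 CPM in siMETTL3, about doubling with groups far apart (log2 fold change 1.17, SE 0.080, edgeR FDR 1.94e-07). KCNJ5 (chromosome 11, 128891356 to 128921163, plus strand) was measured at 1.85, 1.70 and 1.33 CPM in siControl and at 4.66, 4.50 and 6.04 CPM in siMETTL3, a 3.06-fold rise from a low level (log2 fold change 1.62, SE 0.22, edgeR FDR 8.28e-05). KCNJ9 rose to 7.32 ± 0.305 CPM in siMETTL3 against 4.94 ± 0.944 CPM in siControl (log2 fold change 0.57, edgeR FDR 0.0149), a call lost without siControl replicate 2 or siMETTL3 replicate 2 (log2 fold change 0.42 and 0.53, FDR 0.00502 to 0.0789 over its alternatives). KCNJ3, the usual obligate partner in neuronal Kir3 channels, was low and not called (1.75 ± 0.508 CPM in siMETTL3 against 1.54 ± 0.445 CPM in siControl, log2 fold change 0.21, edgeR FDR 0.651).

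The Kir2 subunits, strong rectifiers that hold the resting potential, rose in the 3 genes past the threshold. KCNJ12 was measured at 100.2, 88.4 and 72.8 CPM in siControl and at 135, 133 and 132 CPM in siMETTL3 (log2 fold change 0.61, SE 0.091, edgeR FDR 2.92e-04). It has a near-identical copy, KCNJ18, which was low and not called (1.63 ± 0.258 CPM in siMETTL3 against 1.13 ± 0.572 CPM in siControl, log2 fold change 0.47, edgeR FDR 0.326), so reads of the pair may be split or lost and both values are uncertain. KCNJ14 was measured at 12.1, 11.6 and 10.02 CPM in siControl and at 19.7, 21.95 and 16.8 CPM in siMETTL3 (log2 fold change 0.79, SE 0.12, edgeR FDR 2.16e-04); its neighbours GRWD1 and AC008403.1, which cover 22.7% of its span, were not called (-0.0021 and -0.35). KCNJ4 rose to 9.93 ± 1.59 CPM in siMETTL3 against 6.90 ± 0.934 CPM in siControl (log2 fold change 0.51, edgeR FDR 0.0179) and lost its call on leaving out siMETTL3 replicate 1 or 2 (log2 fold change 0.42 and 0.48, FDR 0.00583 to 0.0987 over its alternatives).

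The ATP-sensitive subunits, which link potassium flow to the cell's energy state, diverged. KCNJ11 was measured at 3.11, 3.70 and 3.05 CPM in siControl and at 6.85, 5.88 and 4.48 CPM in siMETTL3 (log2 fold change 0.80, SE 0.20, edgeR FDR 0.00587). KCNJ8 was measured at 27.6, 27.4 and 32.4 CPM in siControl and at 20.99, 23.7 and 25.2 CPM in siMETTL3 (log2 fold change -0.32, SE 0.098, edgeR FDR 0.0204), the only inward rectifier called lower. Its call was lost without siMETTL3 replicate 1 or 2 (log2 fold change -0.25 and -0.33) and with an offset for span length (-0.24), with FDR 0.00804 to 0.111 over its alternatives. ABCC8, the sulfonylurea receptor that pairs with KCNJ11, rose to 31.8 ± 1.92 CPM in siMETTL3 against 15.4 ± 1.63 CPM in siControl (log2 fold change 1.04, SE 0.098, edgeR FDR 3.50e-06), whereas ABCC9, the receptor that commonly pairs with KCNJ8, was low and not called (log2 fold change -0.68, edgeR FDR 0.158). Neither KCNJ10 (log2 fold change -0.17, edgeR FDR 0.191) nor KCNJ13 (log2 fold change 0.36, edgeR FDR 0.102) was called. KCNJ13 lies wholly within GIGYF2 and passed as higher with an offset for span length (log2 fold change 0.44) or GC content (0.45) or without siControl replicate 1 (0.53), with FDR 0.0231 to 0.340 over its alternatives. KCNJ1, KCNJ2, KCNJ15 and KCNJ16 were too low to test.

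Of the two-pore subunits, 11 of 15 were tested, 4 were higher and 0 were lower, against 18.6% and 19.2% of all tested genes. In either direction 36.4% were called, close to the 37.8% of all tested genes, and the class median log2 fold change was 0.027. Of the 7 that edgeR did not call, 0 had an unadjusted p under 0.05, and DESeq2 and limma-voom also called 0 lower. The acid-sensitive TASK subunits, background channels closed by low external pH and by some receptors, led the class. KCNK9 (chromosome 8, 139600838 to 139704109, minus strand), the TASK3 subunit, was measured at 7.60, 6.66 and 4.51 CPM in siControl and at 30.95, 38.7 and 33.5 CPM in siMETTL3. The siMETTL3 libraries lay over 4 times above the highest siControl library, a 5.40-fold rise (log2 fold change 2.43, SE 0.15, edgeR FDR 2.01e-07), the largest of any called member. KCNK3, the TASK1 subunit, was measured at 65.3, 54.95 and 53.8 CPM in siControl and at 112, 109 and 109 CPM in siMETTL3, close to a doubling (log2 fold change 0.92, SE 0.074, edgeR FDR 7.94e-07). KCNK5, an alkaline-activated subunit also called TASK2, rose to 39.2 ± 4.69 CPM in siMETTL3 against 28.3 ± 3.32 CPM in siControl (log2 fold change 0.47, edgeR FDR 0.00323). KCNK12, a halothane-inhibited subunit, was measured at 36.1, 28.8 and 29.6 CPM in siControl and at 54.8, 56.5 and 54.1 CPM in siMETTL3 (log2 fold change 0.80, SE 0.087, edgeR FDR 1.08e-05). Its span overlaps another gene, so its counts are shared and its value is uncertain.

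The mechanosensitive subunits were not called. KCNK10 stood at 23.2 ± 0.749 CPM in siMETTL3 against 23.9 ± 1.29 CPM in siControl (log2 fold change -0.040, edgeR FDR 0.751), and KCNK2 and KCNK4 had log2 fold changes of -0.45 and -0.41 at levels of 1.21 to 6.24 CPM. KCNK4 was unstable, lower and past the threshold without siControl replicate 1 (-0.81) and positive without siControl replicate 3 (0.14), with FDR 0.0333 to 0.794 over its alternatives. KCNK1, KCNK7, KCNK13 and KCNK15 had log2 fold changes between -0.30 and 0.43 and were not called. KCNK6, KCNK16, KCNK17 and KCNK18 were too low to test. KCNK16, like KCNA5, had 0 counts in every library, which allows at most 3 counts, or 0.138 to 0.199 CPM, in a library by counting error alone.

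All 8 calcium-activated and sodium-activated subunits were tested. Of these, 3 were higher (37.5%) and 2 were lower (25%), against 18.6% and 19.2% of all tested genes. KCNMA1, the large-conductance BK pore that shortens action potentials when calcium enters (chromosome 10, 76869601 to 77638369, minus strand), was measured at 23.00, 20.4 and 21.2 CPM in siControl and at 45.7, 45.8 and 47.7 CPM in siMETTL3. It about doubled, with an SD under 2 CPM in each group (log2 fold change 1.11, SE 0.078, edgeR FDR 2.64e-07). The small-conductance SK subunits, which contribute to the afterhyperpolarisation, rose in 2 of 3 genes. KCNN3 was measured at 4.68, 5.26 and 4.98 CPM in siControl and at 10.3, 10.2 and 9.01 CPM in siMETTL3 (log2 fold change 0.98, SE 0.14, edgeR FDR 1.05e-04). KCNN1 was measured at 10.8, 8.11 and 4.91 CPM in siControl and at 12.7, 13.4 and 12.2 CPM in siMETTL3 (log2 fold change 0.66, SE 0.21, edgeR FDR 0.0256). The siControl libraries of KCNN1 ranged widely: without siControl replicate 3 its log2 fold change was 0.43. Its call was lost without siControl replicate 2 or any 1 siMETTL3 library (log2 fold change 0.67, 0.67, 0.63 and 0.70, FDR 1.97e-04 to 0.0870 over its alternatives). KCNN2 (log2 fold change 0.18, edgeR FDR 0.585) and the intermediate-conductance KCNN4 (log2 fold change 0.83, edgeR FDR 0.195) were not called.

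KCNU1, a pore subunit known from sperm, was placed in this class by its symbol, which does not show that calcium or sodium opens it. KCNU1 (chromosome 8, 36784324 to 36936125, plus strand) showed the largest fall of any called member. It was measured at 5.80, 4.90 and 5.31 CPM in siControl and at 0.972, 1.56 and 1.17 CPM in siMETTL3, a 4.30-fold lower mean from a low level (log2 fold change -2.10, SE 0.23, edgeR FDR 1.12e-05). KCNT2, a sodium-activated subunit, was measured at 338, 336 and 442 CPM in siControl and at 295, 288 and 302 CPM in siMETTL3 (log2 fold change -0.33, SE 0.094, edgeR FDR 0.0154). Its siControl replicate 3 value stood above all others, and the log2 fold change was -0.19 without that library and -0.20 with an offset for GC content. The call of KCNT2 was lost on leaving out siMETTL3 replicate 1 or 2 (log2 fold change -0.33 and -0.32, FDR 6.07e-04 to 0.0625 over its alternatives). Its relative KCNT1, at no more than 1.201 CPM, was not called (log2 fold change -0.64, edgeR FDR 0.224).

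Accessory subunits showed no common direction: 11 of 16 were tested, 3 were higher, 2 were lower, and the median log2 fold change was -0.055. These calls are 27.3% and 18.2% of those tested, against 18.6% and 19.2% of all tested genes. Of the beta subunits of Kv1 channels, which are oxidoreductase-like proteins bound to the channel's inner face, KCNAB1 fell and KCNAB2 rose. KCNAB1 was measured at 119, 112 and 128 CPM in siControl and at 84.4, 83.00 and 93.6 CPM in siMETTL3 (log2 fold change -0.46, SE 0.068, edgeR FDR 1.72e-04). KCNAB2 was measured at 64.9, 56.5 and 41.3 CPM in siControl and at 78.3, 76.3 and 73.9 CPM in siMETTL3 (log2 fold change 0.48, SE 0.13, edgeR FDR 0.0198), with 1.40% of its span shared with NPHP4. This call, too, was lost on leaving out siMETTL3 replicate 1 or 2 (log2 fold change 0.46 and 0.48, FDR 2.27e-04 to 0.0586 over its alternatives). KCNAB3 was level (3.21 ± 0.260 CPM in siMETTL3 against 3.21 ± 0.840 CPM in siControl, edgeR FDR 0.998).

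BK channels take a beta subunit that changes their calcium sensitivity. KCNMB2, which inactivates the channel, was measured at 43.6, 44.1 and 53.6 CPM in siControl and at 35.2, 35.96 and 35.1 CPM in siMETTL3 (log2 fold change -0.41, SE 0.085, edgeR FDR 0.00206), opposite to the pore gene KCNMA1. The model AC117457.1 covers 74.2% of the KCNMB2 span with nearly the same counts and log2 fold change (-0.41), so these counts are shared. KCNMB3 and KCNMB4 were not called (log2 fold change 0.13, edgeR FDR 0.371 and log2 fold change -0.30, edgeR FDR 0.149).

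The KChIP proteins bind Kv4 subunits and carry them to the membrane. KCNIP4 had the most counts of any member, with 1039, 1081 and 1509 CPM in siControl and 1227, 1144 and 1121 CPM in siMETTL3 over a span of 1220 kb (log2 fold change -0.055, edgeR FDR 0.788). A single library, siControl replicate 3, was above the siMETTL3 range; without it KCNIP4 was called higher (log2 fold change 0.13, FDR 0.0259 to 0.907 over its alternatives). KCNIP2 rose to 21.96 ± 2.13 CPM in siMETTL3 against 15.8 ± 2.64 CPM in siControl (log2 fold change 0.47, edgeR FDR 0.00787), and lost its call without siMETTL3 replicate 2 (log2 fold change 0.39, FDR 2.14e-04 to 0.0562 over its alternatives). KCNIP1 rose to 4.28 ± 0.881 CPM in siMETTL3 against 2.47 ± 0.397 CPM in siControl (log2 fold change 0.81, edgeR FDR 0.0110), and lost its call without siMETTL3 replicate 1 (log2 fold change 0.64, FDR 0.00249 to 0.0717 over its alternatives). KCNIP3 and KCNE1 were not called (-0.10 and -0.14 on the log2 scale), and KCNE2, KCNE3, KCNE4, KCNE5 and KCNMB1 were too low to test.

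**Figure D3:**
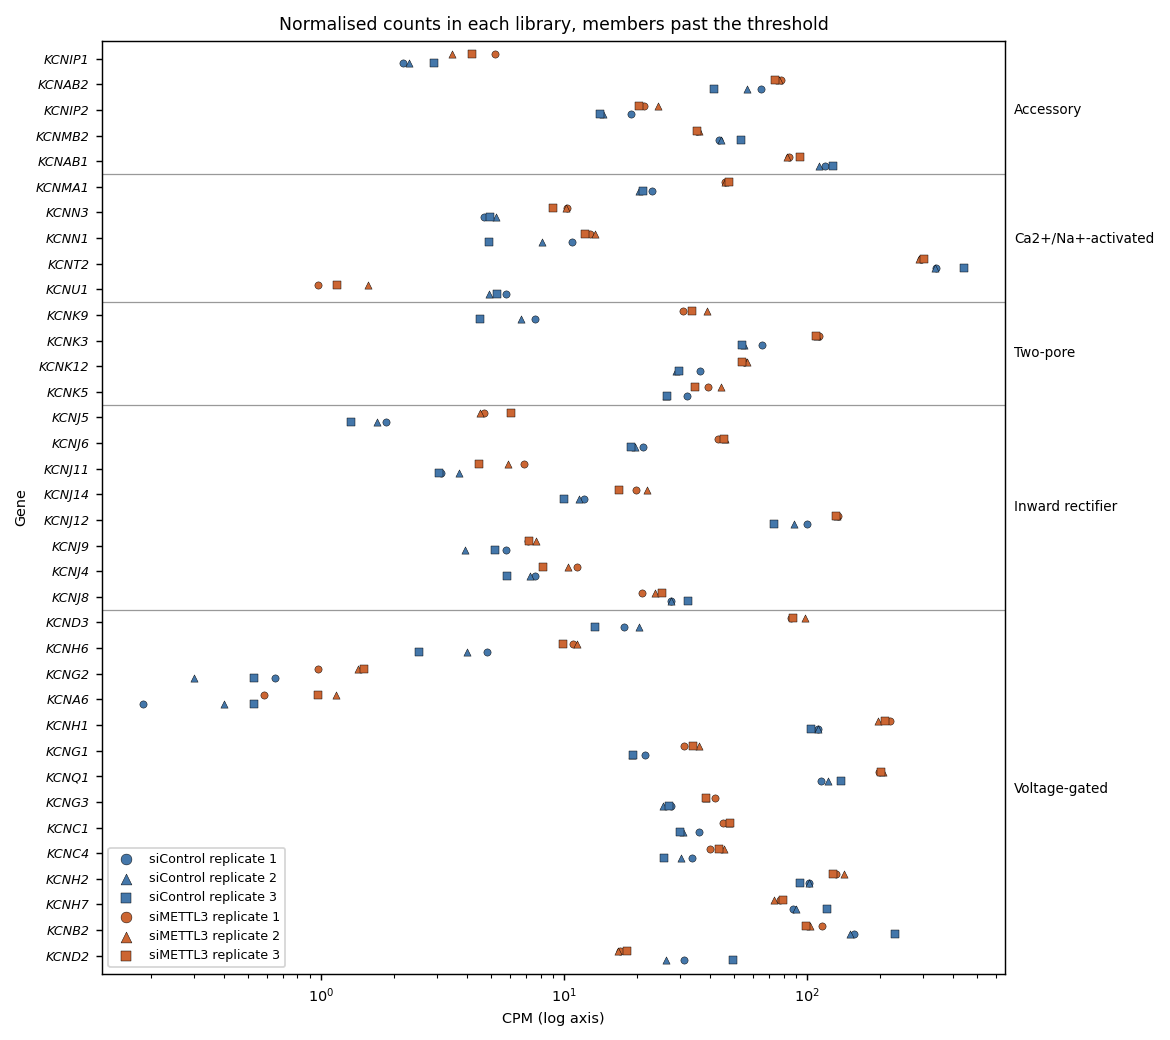
CPM (x axis, log scale) of 36 of the 40 called members (y axis, grouped by class) in each library, with siControl in blue, siMETTL3 in orange and circles, triangles and squares for replicates 1, 2 and 3. The groups of every gene shown are apart, and in KCND3 the siMETTL3 libraries lie between 86.1 and 97.7 CPM, far right of the siControl libraries.

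Summed over a class, the counts of two-pore subunits and inward rectifiers were higher in every siMETTL3 library than in any siControl library. Two-pore subunits summed to 185, 160 and 165 CPM in siControl and to 279.6, 290.2 and 276 CPM in siMETTL3. Inward rectifiers summed to 210.3, 190.04 and 178 CPM in siControl and to 279, 282 and 272 CPM in siMETTL3. The means differed by 1.66 and 1.44 times in these classes. The two-pore difference lay mainly in KCNK3 (58.0 to 110 CPM), KCNK9 (6.26 to 34.4 CPM) and KCNK12 (31.5 to 55.1 CPM, siControl first). The median log2 fold change of the two-pore class was 0.027. The inward rectifier difference lay mainly in KCNJ12 (87.1 to 133 CPM) and KCNJ6 (19.9 to 44.8 CPM), with a class median of 0.54. Voltage-gated sums (1632 ± 93.6 against 1711 ± 25.5 CPM) and accessory sums (1484 ± 262 against 1424 ± 55.9 CPM) overlapped between the groups. Sums of calcium-activated and sodium-activated subunits were lower in all siMETTL3 libraries (416 ± 58.5 against 369.6 ± 6.53 CPM), a class in which KCNT2 gave most of the counts. That difference rested largely on siControl replicate 3 (483 CPM, against 386 and 378 CPM in the other controls): the log2 ratio of the means was -0.17 with it and -0.049 without it. The accessory ratio changed sign without that library, from -0.059 to 0.094. All members together were level and overlapped (3894 ± 392 against 4064 ± 75.7 CPM), but without KCNIP4, which holds the most counts, their sum was higher in every siMETTL3 library (2685 ± 150.2 against 2900.4 ± 29.0 CPM, siControl first). No test was made on these sums.

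**Figure D4:**
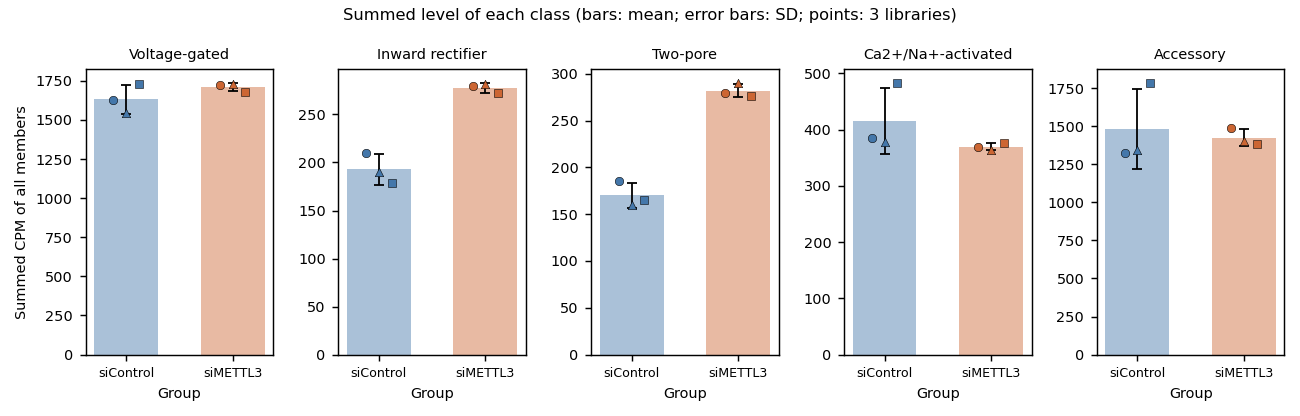
Summed CPM of all members of each class (y axes from 0, own range in each panel) for siControl and siMETTL3 (x axes), with bars for means, error bars for SD and circles, triangles and squares for replicates 1, 2 and 3. The groups are apart for inward rectifiers (193 against 278 CPM) and two-pore subunits (170.03 against 282 CPM), with siMETTL3 higher.

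Levels can be set side by side between genes only per length, and the order depends on which length is used, because whole gene spans were counted. Per kb of span, among the members reported here by name, KCNH2 was highest at 2.97 CPM per kb in siControl and 4.01 in siMETTL3. The next levels among these named members changed order between the groups. In siControl KCNJ8 (2.74) lay above KCNJ12 (2.003), KCNH4 (1.96) and KCNK3 (1.42). In siMETTL3 KCNJ12 (3.06) and KCNK3 (2.71) lay above KCNH4 and KCNJ8 (2.19 each). Per kb of canonical transcript, means that pool both groups were highest for KCNIP4 (501 CPM per kb), KCNT2 (55.7), KCNQ1 (50.6), KCNQ5 (41.7) and KCNB2 (37.9), whose spans are all long.

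Span length moved with the direction of change among the members. The median span was 48.8 kb in the higher, 401 kb in the lower and 65.5 kb in the members not called. Of 30 tested members with a span of at least 100 kb, 11 were higher and 7 lower (36.7% and 23.3%), against 28.3% and 15.7% of all tested genes of that length. Of 43 shorter members, 20 were higher and 2 lower (46.5% and 4.65%), against 15.8% and 20.2% of all shorter genes. KCNJ8 was 1 of the 2 short members that fell, and was singled out after its values were seen. With an offset that removes each library's trend with span, 31 members were higher and 9 lower, 38 of them among the same 40. The transcripts of higher members were also richer in G and C (median 58.4%) than those of lower members (43.7%) or of all tested genes (48.6%). An offset for GC content, added after the data had been seen, again gave 31 higher and 9 lower, 39 of them among the 40.

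**Figure D5:**
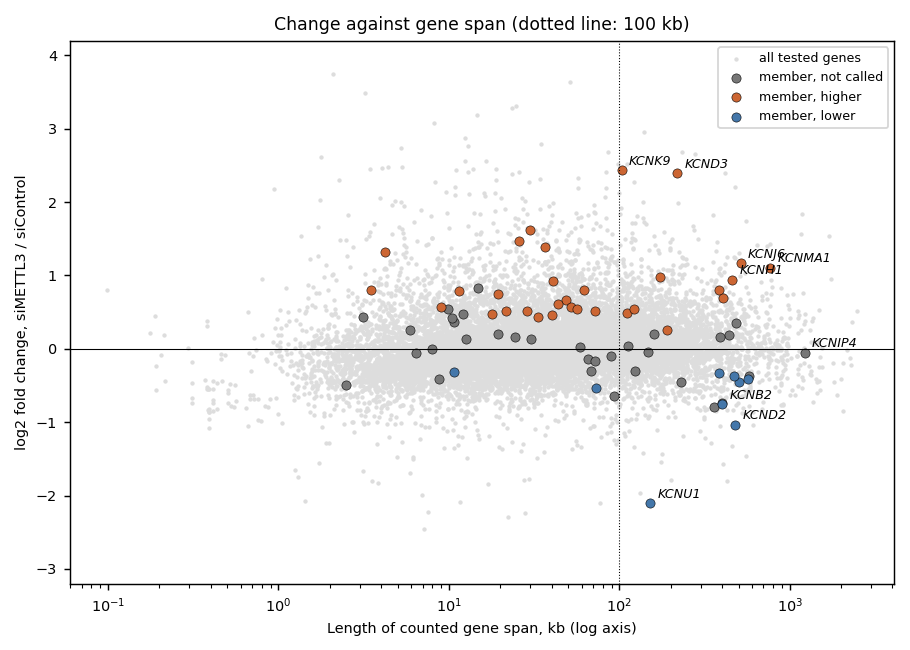
Log2 fold change (siMETTL3 over siControl, y axis) against the length of the counted span in kb (x axis, log scale) for all 15311 tested genes in grey and the 73 tested members in colour (orange higher, blue lower, dark grey not called). Of the 9 blue points 7 lie right of the dotted line at 100 kb, where KCND2 (477 kb) and KCNB2 (401 kb) fell and KCND3 (218 kb), KCNJ6 (514 kb) and KCNMA1 (769 kb) rose.

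Genes that work with potassium channels were taken from a list of 60 partners, regulators and ion-balance genes, of which 51 were tested. The test called 19 of the 51 higher and 5 lower, against 18.6% and 19.2% of all tested genes. The list's median change on the log2 scale was 0.096 against -0.0021 over all tested genes. DPP6, which speeds Kv4 channels, rose to 1153 ± 89.3 CPM in siMETTL3 against 859 ± 65.4 CPM in siControl (log2 fold change 0.43, edgeR FDR 4.22e-04). CNTNAP2, which clusters Kv1 channels beside the node, rose to 658 ± 15.8 CPM in siMETTL3 against 511 ± 21.8 CPM in siControl (log2 fold change 0.36, edgeR FDR 2.25e-04), and VAPB, a membrane protein of the endoplasmic reticulum that tethers Kv2 channels, rose to 208 ± 2.80 CPM in siMETTL3 against 142 ± 2.80 CPM in siControl (log2 fold change 0.55, edgeR FDR 3.97e-06). Calmodulin, the calcium sensor of SK and Kv7 channels, is encoded by several genes, and CALM2 and CALM3 rose (0.31 and 0.48 on the log2 scale).

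Of the muscarinic receptors that close M-channels, CHRM3 and CHRM1 were higher and CHRM5 was not called (log2 fold change 0.013, edgeR FDR 0.934). CHRM3 stood at 159 ± 12.4 CPM in siMETTL3 against 109 ± 6.59 CPM in siControl (log2 fold change 0.55, edgeR FDR 3.84e-05), and CHRM1 stood at 4.68 ± 0.235 CPM in siMETTL3 against 2.39 ± 0.261 CPM in siControl (log2 fold change 0.98, edgeR FDR 0.00127). GNB1, a G-protein beta subunit, rose by 0.30 on the log2 scale (edgeR FDR 0.0014). The chloride cotransporters SLC12A7, which exports potassium with chloride, and SLC12A3 rose (0.62 and 1.19). REST, a repressor of many neuronal genes including ion channels, fell to 17.6 ± 0.447 CPM in siMETTL3 against 23.9 ± 0.392 CPM in siControl (log2 fold change -0.45, SE 0.086, edgeR FDR 0.00113), and its span overlaps that of NOA1. AKAP5, KCNRG and GNG2 were also called lower, with log2 fold changes of -0.51, -0.34 and -0.20.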

How the data were processed

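Each library had 1 deposited table of raw counts per gene symbol. Per the file headers, the authors counted reads with featureCounts 1.5.3 over whole gene spans of a protein-coding GENCODE 33 annotation, introns included, counting a read for every gene it overlaps and setting no strand option. Per the submitters' processing notes, Trimmomatic 0.36 and HISAT2 2.1.0 were used with GRCh38. The headers show no setting for counting pairs, and between 77.4% and 82.9% of counts from 2 to 21 were even, so both mates of a pair were probably counted; the zero limits given assume independent reads. Counts of 33.1% of genes can share reads with an overlapping gene. That share leaves out non-coding genes, which the annotation does not hold.

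Groups and replicate numbers came from the sample titles. Counts were filtered with filterByExpr (15311 genes kept), TMM-scaled and fitted with edgeR 4.0.16 in R 4.3.3 (robust quasi-likelihood F-test, no covariate, all 6 libraries). CPM use the TMM-scaled library size and are given per library or as mean ± SD (n = 3). Each SE was derived from the size of the log2 fold change and its F statistic. The fit was tested on simulated data, where the mean share of false calls was above the nominal FDR. No 2 libraries were identical, and the chi-square per degree of freedom within groups was 2.93 to 14.5. Spans of all 95 members overlapped the gene of the same symbol in GENCODE 44, and 71 had a promoter in the RefSeq table.

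Members and lists were chosen with earlier results of these data known. Named were METTL3, every member past the threshold (4 of them are counted in all totals but not reported here by name), members not past it by class, and the 12 partners with the smallest FDR, with others of the list where a count or pair called for them. Alternatives were RLE or total count scaling, no filter or a minimum of 10 counts per library, DESeq2 1.42.0, limma-voom (limma 3.58.1), a replicate block, genes without overlaps, a span length offset, each library left out, and, added after the data were seen, a GC content offset.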

Additional observations from a re-analysis of the deposited data

How the results depend on the processing

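METTL3 kept its call as lower under all 16 alternatives, with a log2 fold change of -0.74 to -0.69 when each library was left out. Of the 40 called members, 26 kept their call under every alternative in which they were tested, 14 lost it under at least 1, and none changed sign. Left-out libraries gave 22 to 33 higher and 6 to 11 lower members, with 2091 to 3178 higher and 2119 to 3216 lower genes over all tested; the fewest higher members were called without siMETTL3 replicate 2. DESeq2 called 39 members, limma-voom 41, and no filter 39. On genes without overlaps, 22 of 52 members were higher and 7 lower; there, 1852 genes were higher and 1898 lower over all tested, and 2 of the partner list were lower, since fewer genes were tested. Left-out libraries gave 13 to 20 higher and 2 to 6 lower genes of the partner list, with 2 and 3 lower without siMETTL3 replicates 1 and 2. Total count scaling moved the share of higher genes among all calls from 49.2% to 53.9%, and the same 40 members were called. Changes of sign occurred only among members not called. KCNAB3 went to 0.00061 (RLE), 0.022 (total counts), 0.0051 (at least 10 counts), 0.00096 (DESeq2), 0.028 (limma-voom), 0.011 (replicate block) and 0.10 (span offset). The span offset gave -0.038 for KCNA2, -0.023 for KCNK1 and 0.054 for KCNK15, and the GC offset gave 0.039 for KCNIP4. Leaving out each library in turn gave log2 fold changes of -0.056 to 0.18 for KCNA2, -0.16 to 0.24 for KCNAB3, -0.44 to 0.28 for KCNE1, -0.15 to 0.13 for KCNIP4, -0.053 to 0.40 for KCNJ3, -0.13 to 0.14 for KCNK1, -0.17 to 0.021 for KCNK15 and -0.81 to 0.14 for KCNK4. The cause was not tested. Left-out libraries moved the log2 ratio of summed levels between 0.69 and 0.80 for two-pore subunits, 0.47 and 0.59 for inward rectifiers, 0.029 and 0.11 for voltage-gated subunits, -0.23 and -0.049 for calcium-activated and sodium-activated subunits, and -0.14 and 0.094 for accessory subunits. Replicate numbers were shared between the groups, and the main fit did not pair them. Deviations from group means correlated at 0.040, 0.049 and 0.067 for equal numbers, all above the -0.064 to 0.026 for unequal ones. A fit with the replicate block called 6166 genes over all tested, against 5786 in the main fit. The same 40 members kept their calls, and METTL3 had a log2 fold change of -0.71. The 22 untested members had at most 16 counts in any library, too few to judge a change.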
